A study of Homo sapiens with 4 samples.

Results

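The genes described here are 58 ribosome biogenesis genes, chosen by symbol from a list of factors that make, modify and assemble the ribosome. All 58 were found among the 33540 features of the Ishikawa library and the 33538 features of the T-47D library. Ishikawa is an established human endometrial adenocarcinoma line and T-47D an established human breast carcinoma line. Both carry estrogen receptor α, a nuclear receptor that switches on gene transcription when it binds 17β-estradiol (E2).

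Both lines were kept for days in medium depleted of hormones. One culture per line then received DMSO as the vehicle (0 h), and other cultures received 10 nM E2 for 2, 4 or 8 h. Cells of the 4 cultures of a line were tagged with MULTI-seq membrane barcodes, mixed, and sequenced as 1 droplet library, so that the 4 time points of a line share a library. Each line is a single cancer cell line and each time point is 1 culture. There is therefore no replicate, no test and no p-value, and every interval below covers counting error only.

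A ribosome is built from ribosomal RNA and ribosomal proteins with the help of a large set of factors that do not stay in the finished particle. RNA polymerase I transcribes the precursor rRNA in the nucleolus, small nucleolar ribonucleoproteins (snoRNPs) modify it, the small subunit processome and late factors shape the 40S subunit, and a further set of helicases, GTPases and scaffolds shapes the 60S subunit. Many genes of this machinery are textbook targets of the transcription factor MYC, which binds the E-box CACGTG together with MAX, and MYC is itself a known early target of E2 in estrogen-responsive cancer cells.

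The deposited values are counts of unique molecular identifiers (UMIs), each standing for 1 captured transcript. For each line and time point, the counts of its kept cells were added up, divided by the total of that pool and multiplied by 1000000 (CPM). Kept cells numbered 776, 1480, 892 and 1465 at 0, 2, 4 and 8 h for Ishikawa and 1525, 1207, 1341 and 553 for T-47D, with 12927799 to 33175309 UMIs in a pool. The Ishikawa 0 h culture stood apart before the limits on cells were applied, with a median of 10483.5 UMIs and 7.29% mitochondrial UMIs per called cell, against 16193 to 18148 UMIs and 4.63% to 4.95% at the later times. The limits kept 776 of its 2032 called cells, against 1480 of 2651, 892 of 1701 and 1465 of 2693 at 2, 4 and 8 h. After the limits its median was 19121.5 UMIs, against 19616.5 to 21435.5. Every Ishikawa change below is measured against this 0 h culture. The libraries of the lines had 80 barcode sequences in common. The labels were checked against fixed markers. Of 9 breast luminal genes, 9 passed 10 CPM in T-47D (14046 to 19558 CPM in sum) and 5 in Ishikawa (3522 to 4303 CPM), where PIP was at 0 UMIs. Of 7 endometrial genes 6 did so in Ishikawa cells and 0 in T-47D, where PAX8, HOXA10, SOX17 and EMX2 were at 0 UMIs. Of 5 fibroblast genes 1 passed in Ishikawa and 0 in T-47D. None of 5 leukocyte and 3 endothelial genes passed 10 CPM in either line.

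The treatment was visible in known estrogen targets. TGFA, a growth factor, went from 11.2 CPM at 0 h to 33.1, 36.2 and 42.7 CPM at 2, 4 and 8 h in Ishikawa. In T-47D the progesterone receptor gene PGR went from 129.5 to 261, 281 and 355 CPM. GREB1, an estrogen receptor cofactor, was at 10.4, 31.7, 37.8 and 47.3 CPM there. The secreted TFF1 stood at 4.88, 18.3, 20.4 and 32.6 CPM, the chemokine CXCL12 at 6.09, 25.6, 40.3 and 59.9 CPM, and the transcription factor MYB at 4.49, 22.7, 14.5 and 18.2 CPM. In Ishikawa these genes other than TGFA had a mean under 10 CPM, and so did TGFA in T-47D.

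MYC itself was at 17.3 CPM at 0 h in Ishikawa, and at 30.1, 30.5 and 31.1 CPM at 2, 4 and 8 h. In T-47D its mean stayed under 10 CPM, and its summed counts were 72, 217, 204 and 99 UMIs in the order of time, out of pools of 33175309, 26525924, 29649051 and 12927799 UMIs. Its level was thus above 0 h from 2 h on in both lines and changed little afterwards in Ishikawa.

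The promoters of the 58 genes are shown here because their E-boxes are what many of them share in sequence, which the choice of genes did not use. RefSeq promoter windows on GRCh38.p14, each with 250 bases before and 50 bases after the annotated start, were matched by symbol for 51 of the 58. NOP58, BOP1, RRP1B, RRP12, RRS1, DDX18 and NOLC1 were not matched. A gene with several annotated starts has several windows and is counted if any of them matches, so more starts give more chances of a match. CACGTG, which reads the same on both strands, was found for 23 of the 51 genes (45.1%). The same held for 977 of 7328 genes past 10 CPM in either line (13.3%) and 2396 of all 27305 genes with a window (8.77%). Each of the 23 had an E-box within 50 bases of the start, as did 44.5% of the 977. Taken over all genes with a window, an E-box lay that near in 45.1% of the 51 and 5.94% of the 7328. An E-box in the 50 bases after the start was found for 35.3% of the 51 genes and 1.68% of the 7328.

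Of these E-boxes, 9 are printed below as windows of 30 bases, 5′ to 3′ on the strand of the gene, with the E-box in capitals. The first 5 belong to the matched genes with an E-box that were at least 25% higher in both lines at 8 h. These genes are DDX21, WDR43, MRTO4, NOP14 and PES1. The others belong to FBL and BYSL from other parts of the pathway, to the 60S factor GNL3, and to NOP10. NOP10 stayed near its 0 h level in T-47D.
DDX21 (chr10:68956604-68956633, + strand): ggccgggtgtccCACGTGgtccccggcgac
WDR43 (chr2:28894658-28894687, + strand): cgcacggacgaaCACGTGgctgcagcgggg
MRTO4 (chr1:19251807-19251836, + strand): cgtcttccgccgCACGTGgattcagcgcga
NOP14 (chr4:2963374-2963403, - strand): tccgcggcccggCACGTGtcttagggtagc
PES1 (chr22:30591880-30591909, - strand): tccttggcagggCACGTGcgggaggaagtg
FBL (chr19:39846356-39846385, - strand): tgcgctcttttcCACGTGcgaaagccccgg
GNL3 (chr3:52686026-52686055, + strand): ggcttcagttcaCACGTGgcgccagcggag
BYSL (chr6:41921515-41921544, + strand): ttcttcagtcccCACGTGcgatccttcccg
NOP10 (chr15:34343130-34343159, - strand): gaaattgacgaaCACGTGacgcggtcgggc

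The bases around the E-box differed from gene to gene. Other letters were rarer or less particular to these genes. A full estrogen response element (GGTCA and TGACC with 3 bases between them, which reads the same on both strands) was found for 0 of the 51 genes, 2 of the 7328 and 20 of the 27305. The ETS letters CCGGAAG, on either strand, were found for 21 of the 51 (41.2%), 25.2% of the genes past 10 CPM and 12.2% of all genes with a window. A match describes letters in a window and does not show that a factor binds there.

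Of the 58 genes, 58 averaged 10 CPM or more across the time course in Ishikawa, where 7885 genes did so, and 53 in T-47D, where 7440 did. The 5 under the minimum in T-47D are given by counts at 0, 2, 4 and 8 h. POLR1A, the largest subunit of RNA polymerase I, had 236, 199, 248 and 106 UMIs, and POLR1B, its second largest, 187, 209, 268 and 117. NOL6 had 106, 83, 130 and 44 UMIs, the rRNA methyltransferase gene NOP2 37, 49, 58 and 23, and MYBBP1A 172, 168, 228 and 112.

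Before E2 the lines differed in the level of this machinery. At 0 h the 58 genes took 7553 CPM in Ishikawa (95% exact Poisson interval 7510 to 7597) and 4295 CPM in T-47D (4272 to 4317). Of the 53 genes past the minimum in both lines, counted on CPM + 1, 42 were at least 25% higher in Ishikawa cells and 0 were that much lower. By this measure 40.3% of the 6404 genes that passed in both lines were higher and 30.4% lower. The median difference was 1.08 on the log2 scale for the 53 genes, 0.11 for all genes and 0.51 for 79 ribosomal protein genes. Both lines were sequenced in their own library, so line and library cannot be told apart. The reporter feature GFP took 4.67%, 3.17%, 3.95% and 4.10% of the Ishikawa UMIs at 0, 2, 4 and 8 h, and 0% in T-47D. Without mitochondrial and reporter UMIs in the totals the median was 1.05, with 41 genes higher and 2 lower.

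The widest gap was that of WDR43, a scaffold of the UTP-A complex that binds the precursor rRNA first, at 178 CPM in Ishikawa cells and 38.6 CPM in T-47D (4.52-fold). GAR1, a core protein of box H/ACA snoRNPs, was at 130 and 33.6 CPM (3.80-fold), and the U3 snoRNP protein gene RRP9 at 34.4 and 8.86 CPM (3.59-fold). At the other end IMP3 was at 94.8 and 118 CPM, NOC4L at 17.5 and 21.8 CPM, and NOP10 at 216 and 249 CPM. NPM1 was near parity, at 1401 and 1432 CPM, while the other abundant nucleolar protein gene NCL was at 1555 CPM in Ishikawa cells and 490 CPM in T-47D.

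After E2 most of the machinery moved up in both lines, by small factors. In Ishikawa 53, 55 and 58 of 58 genes were above 0 h at 2, 4 and 8 h, where 45.5%, 46.2% and 50.3% of all genes were. In T-47D 51 of 53 genes were above 0 h at each of these times, where 52.0%, 47.2% and 51.9% of all genes were. The median change of the genes in Ishikawa was 0.12, 0.17 and 0.30, measured as log2((CPM + 1)/(CPM at 0 h + 1)), beside medians of -0.01, -0.01 and 0.00 over all genes. In T-47D it was 0.19, 0.32 and 0.29, beside 0.01, -0.01 and 0.01. The Ishikawa medians thus grew at each time, while those of T-47D were at their 8 h size by 4 h.

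A gene is said below to have risen if its CPM + 1 was at least 25% above that at 0 h. That is 0.32 on the log2 scale, and a gene just past 25% in plain CPM can stay under it. A gene is said to have fallen if its CPM + 1 was lower by the same factor. By this measure 0, 7 and 23 of 58 genes rose in Ishikawa at 2, 4 and 8 h, where 2.40%, 2.56% and 3.89% of all genes did. In T-47D 9, 26 and 21 of 53 genes rose, where 3.41%, 4.49% and 7.11% of all genes did. None of the genes fell in either line at any time, where 4.10%, 4.63% and 4.21% of all genes fell in Ishikawa cells and 1.68%, 2.76% and 4.44% in T-47D. At 1.5-fold the counts were 0, 0 and 0 in Ishikawa (0.786%, 0.634% and 0.812% of all genes) and 2, 5 and 3 in T-47D (1.22%, 1.33% and 2.34%). The shift was thus broad and shallow, and lay in the bulk of the genes rather than in a few with large changes.

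**Figure D1:**
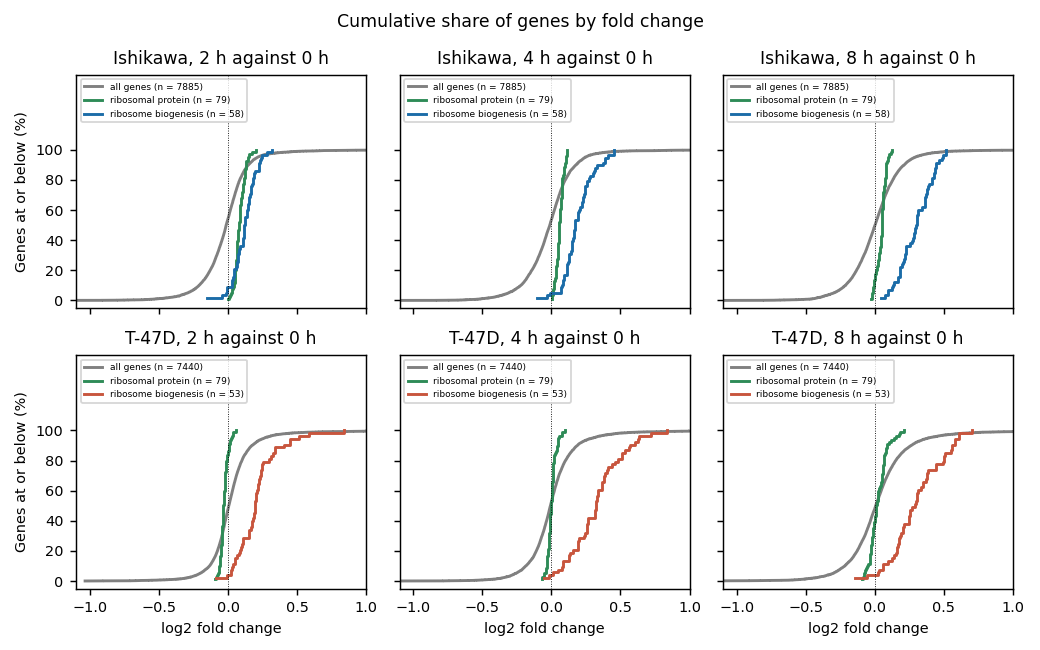
Cumulative share of genes (vertical axis, %) by log2 fold change against 0 h (horizontal axis), for each line and time, with all genes past 10 CPM in grey, 79 ribosomal protein genes in green and the ribosome biogenesis genes in blue (Ishikawa, 58) or red (T-47D, 53). The ribosome biogenesis curve lies to the right of the grey curve over most of its length in all 6 panels, where their median is 0.12, 0.17 and 0.30 in Ishikawa cells and 0.19, 0.32 and 0.29 in T-47D.

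Box C/D snoRNPs place methyl groups on rRNA. Their core proteins fibrillarin (FBL, the methyltransferase), NOP56 and NOP58 are 3 of the 58. FBL was at 145, 157, 157 and 170 CPM at 0, 2, 4 and 8 h in Ishikawa cells and at 49.4, 53.2, 56.6 and 57.1 CPM in T-47D. Its log2 change at 8 h was 0.22 (95% interval of the plain ratio 0.15 to 0.30) and 0.21 (0.08 to 0.34), so FBL was higher in both without reaching 25%. NOP56 was at 284, 301, 299 and 352 CPM in Ishikawa, with most of its change after 4 h, and at 98.3, 112, 140 and 147 CPM in T-47D, where it rose by 0.51 at 4 h and 0.58 at 8 h. NOP58 was at 182, 192, 195 and 207 CPM in Ishikawa cells and at 58.03, 65.1, 73.0 and 71.6 CPM in T-47D, and rose in T-47D at 4 h alone.

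Box H/ACA snoRNPs turn uridine of rRNA into pseudouridine. Dyskerin (DKC1), the enzyme, was one of the genes with the largest change in both lines. It was at 137, 161, 179 and 196 CPM in Ishikawa cells and at 42.6, 51.0, 66.7 and 64.2 CPM in T-47D. Its log2 change at 8 h was 0.52 (0.45 to 0.59) in Ishikawa cells and 0.58 (0.47 to 0.72) in T-47D. The other 3 core genes of the same particle did not follow it to that extent. NHP2 was at 235, 264, 248 and 259 CPM in Ishikawa cells and at 214, 217, 234 and 255 CPM in T-47D, and GAR1 had changes of 0.18 and 0.13 at 8 h. NOP10 was at 216, 227, 230 and 228 CPM in Ishikawa. In T-47D it was at 249, 248, 246 and 240 CPM, and it was the only one of the 53 genes that was highest at 0 h there. Within this particle the changes at 8 h thus ranged from 0.08 to 0.52 in Ishikawa cells and from -0.06 to 0.58 in T-47D.

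The nucleolar chaperones and scaffolds are NCL (nucleolin), NPM1 (nucleophosmin) and NOLC1, of which NCL and NPM1 had the largest counts of the 58 genes. NCL was at 1555, 1652, 1740 and 2008 CPM in Ishikawa cells and at 490, 558, 611 and 637 CPM in T-47D, and its log2 change at 8 h was 0.37 (0.35 to 0.39) and 0.38 (0.34 to 0.42). NPM1 was at 1401, 1476, 1555 and 1636 CPM in Ishikawa cells and at 1432, 1486, 1518 and 1594 CPM in T-47D. NPM1 thus changed least of the 3, by 0.22 and 0.15 at 8 h, and since it has many processed pseudogenes its counts are uncertain. NOLC1, which shuttles between nucleolus and cytoplasm, rose in both lines at 8 h, by 0.41 and 0.35.

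Among the genes of rRNA transcription, DDX21, an RNA helicase of the nucleolus, had the clearest change. It was at 339, 367, 406 and 456 CPM in Ishikawa cells and at 160, 219, 236 and 236 CPM in T-47D. The helicase thus had most of its change by 2 h in T-47D, with a log2 change of 0.45 (0.40 to 0.51), and climbed at each time in Ishikawa, to 0.43 (0.38 to 0.48). RNA polymerase I subunits were mixed. POLR1A was at 18.5, 18.4, 18.4 and 19.8 CPM in Ishikawa, and POLR1B was at 14.3, 16.3, 17.3 and 19.1 CPM, with a rise of 0.39 (0.19 to 0.64) at 8 h. The subunit POLR1D, shared with RNA polymerase III, was at 165, 173, 180 and 179 CPM in Ishikawa cells and at 72.1, 73.3, 69.3 and 73.6 CPM in T-47D. POLR1C, the other shared subunit, rose in T-47D at 2 h (0.34) and 4 h (0.41) and had a change of 0.17 at 8 h.

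The small subunit processome is the large early particle that holds the 40S precursor, and UTP-A and UTP-B are its first building blocks. Of 8 such genes, 8 were above 0 h at 8 h in both lines, and 2 rose in each. WDR3 of UTP-B was at 31.4, 36.8, 43.3 and 45.3 CPM in Ishikawa, a log2 change of 0.52 (0.38 to 0.68) at 8 h, and at 12.03, 13.9, 15.8 and 14.5 CPM in T-47D. WDR43 was at 178, 202, 221 and 240 CPM in Ishikawa cells and at 38.6, 55.5, 52.8 and 49.4 CPM in T-47D. WDR43 thus peaked at 2 h in T-47D, with 0.51 (0.41 to 0.63), and was highest at 8 h in Ishikawa. NOL11 was among the lowest, at 53.6, 53.1, 59.5 and 61.9 CPM in Ishikawa cells and at 47.1, 49.4, 49.7 and 47.8 CPM in T-47D. UTP15 had a change of 0.01 at 4 h in T-47D, after 0.24 at 2 h.

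Of the other genes of the processome, 3 of 9 rose at 8 h in Ishikawa and 3 of 8 past the minimum in T-47D. DDX10, an RNA helicase, was at 37.9, 36.7, 42.1 and 46.7 CPM in Ishikawa cells and at 29.5, 33.5, 49.3 and 45.6 CPM in T-47D. The step from 2 h to 4 h in T-47D was the largest DDX10 made, and its log2 change at 4 h was 0.72 (0.62 to 0.86). NOP14 rose in both lines at 8 h, by 0.44 and 0.49. UTP3 was at 51.0, 53.2, 49.8 and 52.8 CPM in Ishikawa cells and had the lowest change of the 58 genes at 8 h, 0.05 (-0.08 to 0.17). NOC4L, the partner of NOP14, was at 21.8, 22.6, 23.9 and 19.6 CPM in T-47D, the lowest change there at 8 h, -0.14 (-0.36 to 0.06). Both of these intervals hold 0, so neither gene was distinguishable from its 0 h level at this depth.

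Late 40S factors act on the particle as it leaves the nucleus. All 6 were above 0 h in both lines at 4 and 8 h, and 3 rose in each line at 8 h. BYSL (bystin) was at 26.1, 29.8, 29.5 and 32.4 CPM in Ishikawa cells and at 11.5, 16.0, 16.4 and 18.0 CPM in T-47D, where its log2 change was 0.45 at 2 h and 0.61 (0.41 to 0.89) at 8 h. RRP12, an export factor, was at 23.9, 21.4, 26.2 and 29.4 CPM in Ishikawa, below 0 h at 2 h by counts that allow no change (-0.35 to 0.03). In T-47D it was at 9.92, 12.6, 15.6 and 15.1 CPM and its change was 0.61 at 4 h.

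The PeBoW complex of PES1, BOP1 and WDR12 works on the 60S precursor, and its subunits need each other for assembly. PES1 rose in both lines at 8 h, by 0.37 and 0.33. BOP1 differed most of the 3 between the lines. It was at 52.8, 53.8, 49.0 and 56.5 CPM in Ishikawa, where it had the lowest change of the 58 genes at 4 h, -0.11 (-0.24 to 0.03), and at 15.6, 16.6, 23.7 and 23.4 CPM in T-47D, where its change at 4 h was 0.57 (0.43 to 0.77). Its levels were higher in Ishikawa at every time, while it rose in T-47D alone. WDR12 was at 34.7, 37.8, 41.0 and 43.4 CPM in Ishikawa cells and at 12.9, 13.2, 15.4 and 17.9 CPM in T-47D.

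The 16 other 60S factors held the gene with the largest change in T-47D. RRS1, which helps to place the 5S particle in the 60S precursor, was at 28.1, 51.0, 50.9 and 46.5 CPM in T-47D. All of its change was thus present at 2 h, with a log2 change of 0.84 (0.74 to 0.98). In Ishikawa RRS1 was at 56.8, 71.3, 78.04 and 80.2 CPM, the highest change of the 58 genes at 2 h (0.32, interval 0.21 to 0.44). It was just under the 25% line on the CPM + 1 scale and just past 25% in plain CPM. NOP16 was next at 2 h in both lines, with 58.5, 71.5, 76.0 and 81.2 CPM in Ishikawa cells and 17.0, 26.0, 26.7 and 24.5 CPM in T-47D. Both genes were therefore early in both lines. After 2 h they went up at each time in Ishikawa, and in T-47D they stayed within a narrow range.

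GNL3 (nucleostemin), a nucleolar GTPase, was at 133, 157, 176 and 181 CPM in Ishikawa cells and at 60.6, 72.2, 79.3 and 68.8 CPM in T-47D. RRP1 was at 35.7, 42.1, 41.9 and 50.5 CPM in Ishikawa cells and at 22.6, 25.2, 33.2 and 26.0 CPM in T-47D. Both peaked at 4 h in T-47D and at 8 h in Ishikawa. MRTO4 rose in both lines at 8 h, by 0.43 and 0.50. NOP2 in Ishikawa was at 12.02, 13.9, 16.0 and 15.9 CPM, a log2 change of 0.39 at 4 h. RRP1B was at 30.8, 28.9, 34.5 and 32.1 CPM in T-47D, the lowest change there at 2 h, -0.09 (-0.23 to 0.04).

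**Figure D2:**
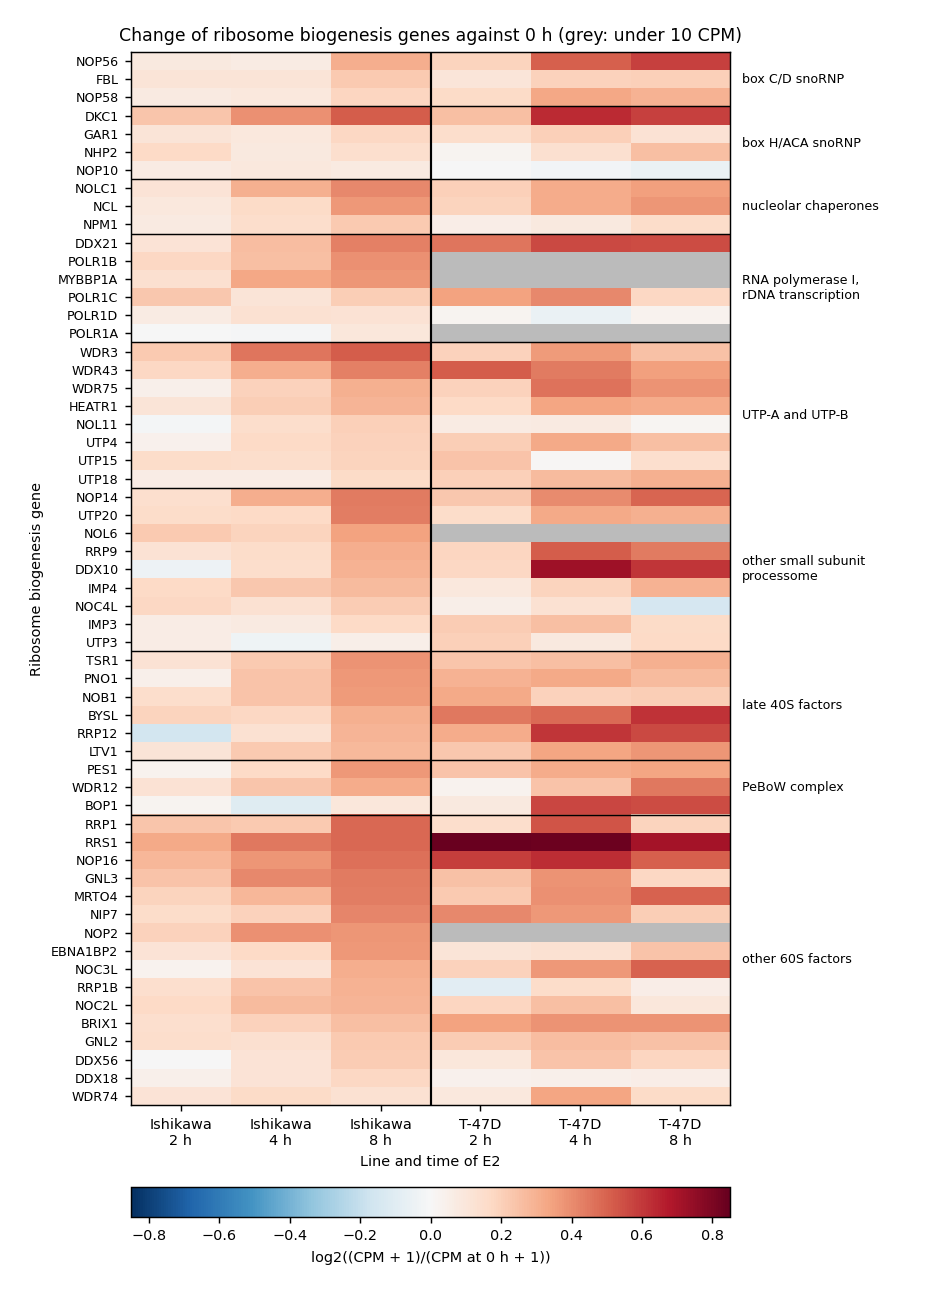
Log2 fold change against 0 h (colour) of the 58 genes (rows, grouped by role) at 2, 4 and 8 h in Ishikawa (left) and T-47D (right), with genes under 10 CPM in grey. Ishikawa columns darken from 2 h to 8 h, while T-47D columns are darkest at 4 and 8 h, with RRS1 at 0.84 at 2 h.

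Most genes thus went the same way in both lines, and the time of the highest level differed. Of 58 genes in Ishikawa, 51 were highest at 8 h, and the other 7 peaked at 4 h (4 genes) or 2 h (3 genes). Of 53 in T-47D, 27 were highest at 4 h and 19 at 8 h, 6 peaked at 2 h and 1 was highest at 0 h. Among all genes, 31.4% were highest at 8 h in Ishikawa cells and 34.4% in T-47D, and 18.0% and 13.7% were highest at 4 h. From 2 h to 4 h, 45 of 58 genes went up in Ishikawa (52.4% of all genes) and 45 of 53 in T-47D (45.2%). From 4 h to 8 h, 54 of 58 went up in Ishikawa (57.1%), with a median step of 0.10, and 22 of 53 in T-47D (55.5%), with a median step of -0.02. From 2 h to 8 h the counts were 55 of 58 (57.2%) and 37 of 53 (50.5%). The sign of the T-47D step from 4 h to 8 h turned with a minimum of 50 CPM (0.029) and in cells under 5% mitochondrial UMIs (0.048), so that step is best read as near 0.

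The summed level of the 58 genes went from 7553 CPM in Ishikawa to 8121, 8534 and 9295 CPM at 2, 4 and 8 h, which is 7.52%, 13.0% and 23.1% above 0 h. In T-47D it went from 4295 CPM to 4744, 5030 and 5112, which is 10.47%, 17.1% and 19.0% above 0 h. Of the summed change at 8 h, 32.6% was reached at 2 h and 56.3% at 4 h in Ishikawa. The like shares for T-47D were 55.0% and 89.97%. NPM1 and NCL hold a large part of these sums. Without them the sums at 2, 4 and 8 h were 8.64%, 13.95% and 22.9% above 0 h in Ishikawa cells and 13.8%, 22.3% and 21.5% in T-47D.

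**Figure D3:**
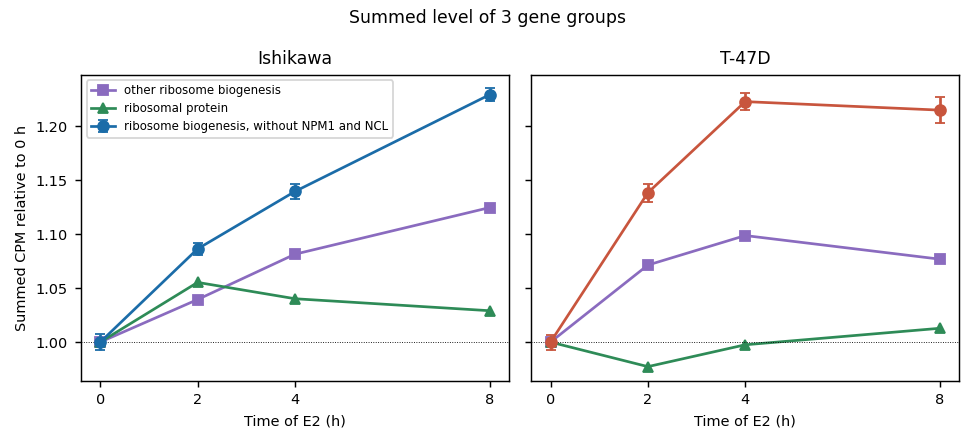
Summed CPM relative to 0 h (vertical axis) over the time of E2 (horizontal axis, h) in Ishikawa (left) and T-47D (right), for the ribosome biogenesis genes without NPM1 and NCL (circles, bars are 95% exact Poisson intervals of the sum), other ribosome biogenesis genes (squares) and ribosomal protein genes (triangles). The circles end 22.9% above 0 h in Ishikawa cells and 21.5% above in T-47D, where the level at 4 h, 22.3%, is already as high.

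Of the 53 genes past the minimum in both lines, 47, 49 and 51 were above 0 h in both at 2, 4 and 8 h, where 25.7%, 27.7% and 32.8% of the 6404 genes past the minimum in both were. None was below 0 h in both, where 26.2%, 31.0% and 27.8% of the 6404 were, and 6, 4 and 2 went in opposite directions, as did 48.2%, 41.3% and 39.4% of the 6404. At 8 h these 2 were NOP10 and NOC4L. Genes that rose in both lines numbered 0 (0.484% of the 6404), 5 (0.734%) and 10 (0.999%) at 2, 4 and 8 h. At 4 h they were WDR3, DKC1, GNL3, NOP16 and RRS1, and at 8 h PES1, DDX21, WDR43, DKC1, NCL, NOLC1, MRTO4, NOP16, RRS1 and NOP14. No gene rose in one line and fell in the other.

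The measured changes of a gene in Ishikawa and in T-47D were only loosely related. Counting error of single genes lowers such a correlation, and its part was not estimated. Across the 53 genes, which share their pools in each line and are not independent, Pearson's r was 0.41, 0.37 and 0.47 and Spearman's rho 0.34, 0.36 and 0.51 at 2, 4 and 8 h. Over all 6404 genes r was 0.24, 0.30 and 0.30. The change was larger in T-47D for 38, 39 and 27 of 53 genes at 2, 4 and 8 h, beside 56.3%, 54.2% and 52.6% of the 6404 genes.

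**Figure D4:**
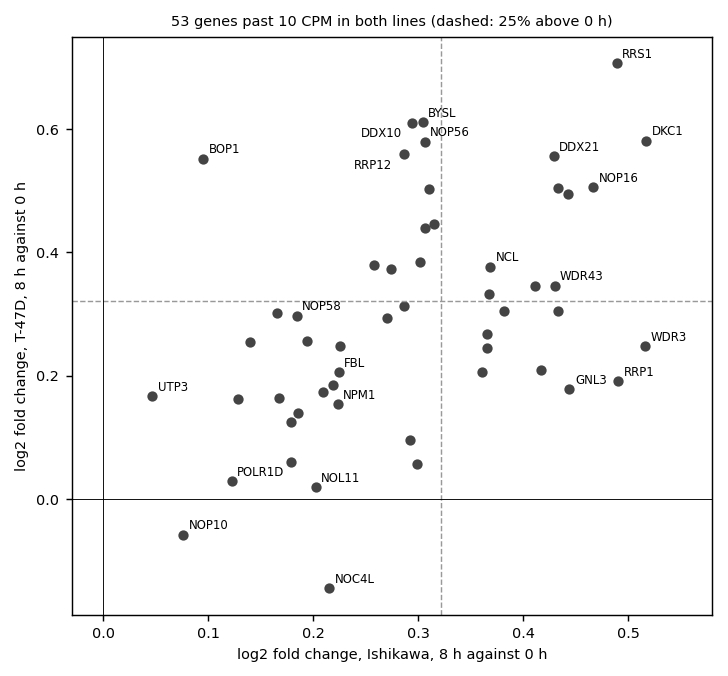
Log2 fold change at 8 h against 0 h in Ishikawa (horizontal axis) and T-47D (vertical axis) for the 53 genes past 10 CPM in both lines, 1 point per gene, with dashed lines at 25% above 0 h. The 10 genes in the upper right corner rose in both lines, and NOP10 and NOC4L lie under 0 in T-47D.

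Within the 51 genes with a promoter window, those with an E-box in it and those without moved to a like extent in Ishikawa at 2 and 4 h. At 8 h in Ishikawa and at each time in T-47D the median was higher with an E-box, and this difference was not tested. E-boxes outside the window were not looked for. The median changes at 2, 4 and 8 h were 0.12, 0.17 and 0.34 in the 23 genes with an E-box and 0.12, 0.16 and 0.29 in the 28 without. In T-47D they were 0.21, 0.32 and 0.30 in the 20 with an E-box past the minimum and 0.19, 0.29 and 0.21 in the 26 without. The ranges of the changes overlapped. At 8 h in T-47D they were -0.06 to 0.61 with an E-box and -0.14 to 0.61 without. Genes with large changes were in both sets. BYSL, DDX21 and GNL3 had CACGTG in their window, DKC1, WDR3 and NOP16 did not, and NOP10, which stayed near its 0 h level in T-47D, had 2.

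The shift was also seen in the distribution over single cells. To compare cells of unequal depth, UMIs were drawn down to 12539 a cell for Ishikawa and 14495 a cell for T-47D, which left 676, 1305, 835 and 1336 cells and 1331, 1082, 1231 and 519 cells at 0, 2, 4 and 8 h. The median thinned cell held 93, 101, 106 and 116 UMIs of the 58 genes in Ishikawa cells and 61, 67, 72 and 72 in T-47D. The tenth percentile went from 63 to 79 UMIs in Ishikawa cells and from 46 to 53 in T-47D between 0 h and 8 h, and the ninetieth from 125 to 153 and from 80 to 97.2. The low and the high end of the distribution were thus both higher at 8 h, with wide overlap between times. The share of cells above the median of the 0 h cells was 61.9%, 69.0% and 78.7% in Ishikawa cells and 64.3%, 72.7% and 73.6% in T-47D. Before thinning, the median share of a cell's UMIs was 0.738%, 0.798%, 0.837% and 0.925% in Ishikawa cells and 0.422%, 0.459%, 0.490% and 0.504% in T-47D. Cells of a culture are not replicates, so these are descriptions of 8 cultures.

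**Figure D5:**
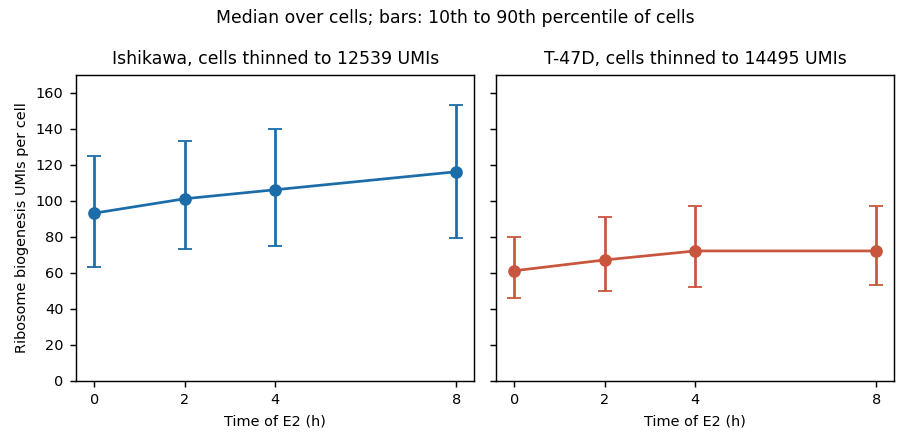
UMIs of the 58 genes per cell (vertical axis) after thinning each cell to 12539 UMIs in Ishikawa (left) or 14495 in T-47D (right), over the time of E2 (horizontal axis, h), with points at the median of cells and bars from the 10th to the 90th percentile. The median goes from 93 to 116 in Ishikawa cells and from 61 to 72 in T-47D, and the bars of neighbouring times overlap.

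Dividing cells need new ribosomes, and the share of cells with a UMI of TOP2A or MKI67, which mark dividing cells, was not constant. It was 66.1%, 67.8%, 72.3% and 66.8% at 0, 2, 4 and 8 h in Ishikawa cells and 32.6%, 31.7%, 37.0% and 41.6% in T-47D. In cells without such a UMI the median change of the genes was 0.13, 0.18 and 0.31 in Ishikawa cells and 0.19, 0.31 and 0.27 in T-47D. In cells with one it was 0.11, 0.18 and 0.29 in Ishikawa cells and 0.17, 0.31 and 0.29 in T-47D. The median change was therefore of like size in both kinds of cell. Values of single genes moved, but these pools are smaller and part of the pools of all cells. In Ishikawa cells without such a UMI the 0 h pool held 4506137 UMIs, out of 15305038 in all kept cells. No interval is given for the single genes below, and a difference between the kinds of cell was not tested. At 8 h in Ishikawa cells without such a UMI, RRS1 was at 0.31 against 0.49 in all cells, under the 25% line, and NOP2 at 0.14 against 0.38. In T-47D cells without one, NOP16 was at 0.27 against 0.51 and so under that line too, and GNL3 at 0.06 against 0.18.

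Further listed genes of the pathway moved less than the 58. The 58 genes and the list below were both chosen with earlier results of these data known. What that choice adds to the difference was not tested. The list also holds NOL3, which is better known as an apoptosis repressor. Of 102 further ribosome biogenesis genes, listed from general knowledge and not members of the 58, 96 passed the minimum in Ishikawa cells and 90 in T-47D. Their median changes at 2, 4 and 8 h were 0.07, 0.13 and 0.16 in Ishikawa cells and 0.10, 0.14 and 0.12 in T-47D. At 8 h 89 of 96 and 69 of 90 were above 0 h, where 50.3% and 51.9% of all genes were. At that time 16 of 96 rose in Ishikawa cells, where 3.89% of all genes did. In T-47D 10 of 90 rose, where 7.11% of all genes did. In both lines 0 fell, where 4.21% and 4.44% of all genes did. The highest in Ishikawa at 8 h were PDCD11 (0.47), a processome scaffold, EXOSC2 (0.43), a subunit of the RNA exosome that trims rRNA, and PPAN (0.42), a 60S factor. In T-47D they were TMA16 (0.66), URB1 (0.64) and EXOSC2 (0.58). The lowest were NOP53 at -0.18 in Ishikawa cells and NGDN at -0.19 in T-47D. UBTF, the factor that opens rDNA for RNA polymerase I, was at 142, 140, 125 and 143 CPM in Ishikawa cells and 87.5, 85.5, 88.7 and 92.7 CPM in T-47D.

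Ribosomal protein genes, the products of which the machinery assembles, did not show a change of this size. Of 79 past the minimum in each line, 0 rose and 0 fell at any time. Those above 0 h by any amount numbered 78, 79 and 68 of 79 in Ishikawa cells, and 11, 37 and 48 of 79 in T-47D. Their median changes were 0.08, 0.06 and 0.05 in Ishikawa cells and -0.03, 0.00 and 0.01 in T-47D. At 8 h the highest change among them was 0.13 in Ishikawa cells and 0.21 in T-47D. The summed ribosomal protein level at 8 h was 1.03 times that at 0 h in Ishikawa cells and 1.01 times in T-47D, beside 1.23 and 1.19 times for the ribosome biogenesis genes past the minimum.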

How the data were processed

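Single-cell RNA was measured in Ishikawa and T-47D cells. The authors made the deposited counts of UMIs per gene and barcode with Cell Ranger 3.1.0 on hg38, as the submitters' processing notes name them, and deposited a table that assigns barcodes to time points from their MULTI-seq tags. Of 14985 Ishikawa and 18188 T-47D barcodes, 9077 and 4626 were called to 1 time point. Cells were kept within the study's limits (Ishikawa 8500 to 35000 UMIs with 2700 to 6000 genes and a mitochondrial share under 7%, T-47D 7500 to 40000 UMIs with 1500 to 6000 genes and a share under 20%), which left 4613 and 4626. Tag doublets (1906 and 1442) were left out, pairs of cells from 1 time point cannot be seen by tags, and no doublet caller was run.

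UMIs were summed per line and time point, and changes are log2((CPM + 1)/(CPM at 0 h + 1)), which understates low genes, for genes with a mean of at least 10 CPM. The reporter features GFP and tdTomato were not tested. Intervals are 95%, exact Poisson for CPM and exact conditional binomial for ratios. Python 3.11.15 with numpy 2.4.6, pandas 2.3.3 and scipy 1.17.1 was used, and edgeR 4.0.16 (R 4.3.3) for other scaling factors only. The fold change calculation was tested on simulated pools with known changes.

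The 58 genes, the lists and the rule for named genes were chosen with earlier results of these data known. Named were NCL, NPM1, FBL, DKC1, NOP56, NOP58, POLR1A, POLR1B, the 5 highest and 3 lowest changes per line and time, genes under the minimum, the 3 largest differences between lines at 0 h in each direction, the 3 highest and the lowest other ribosome biogenesis genes at 8 h, MYC and estrogen targets. Further genes were named after their values were seen. Promoters were those of RefSeq on GRCh38.p14. The reference genome on another build was not used.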

Additional observations from a re-analysis of the deposited data

How the results depend on the processing

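With 1 culture per line and time there is no estimate of the spread between cultures, and a low gene has a wide counting interval. The median change of the genes stayed above 0 in both lines under every alternative, in turn at 2, 4 and 8 h from 0.10 to 0.16, 0.15 to 0.21 and 0.27 to 0.33 in Ishikawa cells and from 0.18 to 0.27, 0.27 to 0.34 and 0.24 to 0.36 in T-47D. The Ishikawa median at 2 h went to 0.157 by TMM, 0.153 by median-of-ratios factors, 0.0987 with totals without mitochondrial, GFP and tdTomato UMIs, and 0.0990 in cells under 1% GFP UMIs, and that at 4 h to 0.21 by TMM, by median-of-ratios factors and under 1% GFP. In T-47D cells under 5% mitochondrial UMIs, 45 to 130 cells a time, it was 0.27 at 2 h and 0.36 at 8 h, 22 genes rose at 2 h (11.8% of all genes in those cells), and NOP16 at 8 h turned to -0.071. The median step from 4 h to 8 h in T-47D turned to 0.048 in those cells and to 0.029 at a 50 CPM minimum. In Ishikawa it was 0.074 in every called cell. Some alternatives moved the count of 0 genes risen in Ishikawa at 2 h. It was 2 of 58 with TMM factors, in every called cell, under 1% GFP, under 5% mitochondrial UMIs and in thinned cells. It was 1 of 58 with median-of-ratios factors, a pseudocount of 0.1 CPM, a lower UMI limit and no TOP2A or MKI67 UMI. In these settings 1.52% (every called cell) to 5.41% (no TOP2A or MKI67 UMI) of all genes rose. Such counts thus do not set the 58 apart. A minimum of 50 CPM tests fewer genes, 37 in Ishikawa and 17 in T-47D. In Ishikawa 4 and 15 of 37 rose at 4 and 8 h, where 1.35% and 3.03% of all genes past it did. In T-47D 1, 6 and 6 of 17 rose at 2, 4 and 8 h, where 2.31%, 3.58% and 5.15% did. With this minimum 12 genes were higher in Ishikawa at 0 h, and 16, 15 and 16 were above 0 h in both lines. No share of all genes is given for these last counts. A fold of 1.5 left 0 in Ishikawa at both later times, and 2, 5 and 3 for T-47D. In T-47D every called cell is the same set as the kept cells, so that alternative could change nothing there. The alternatives for 0 h, steps and single genes, and that without NPM1 and NCL, were chosen after seeing the data.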
